A study of Homo sapiens with 4 samples.

Results

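The semaphorins, plexins, neuropilins, ROBO receptors and SLIT ligands were examined in 4 prostate cancer cell lines. Members were chosen by gene name, and 32 of the 22637 genes in the table carried one of the names: 18 semaphorins of classes 3, 4, 6 and 7, 9 plexins, NRP1, 3 ROBO receptors and SLIT1. The names SEMA5A, SEMA5B, NRP2, ROBO4, SLIT2 and SLIT3 were not analysed here. The group was also selected on SEMA6D being higher in both resistant lines, so the SEMA6D ratios given below are a description and support nothing.

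LNCaP is a castration-sensitive human prostate adenocarcinoma line that grows in response to androgen, and C4-2B, which grows without it, was derived from LNCaP and is called castration-resistant. LN-OlapR and 2B-OlapR are the olaparib-resistant lines made from LNCaP and C4-2B by chronic exposure to rising doses of olaparib, an inhibitor of the DNA repair enzyme PARP, over 1 year. Whether they are single clones is not given in the sources used here. LN-OlapR was compared with LNCaP (the LN pair) and 2B-OlapR with C4-2B (the 2B pair). All 4 samples were labelled untreated, and the cells were plated for 48 hours without a selection agent before RNA was taken. The study's methods give a longer time, and say that the resistant lines were kept in medium with olaparib and plated in the medium described before, so whether olaparib was present at harvest is not settled by the sources. If it was, an effect of drug in the medium and a lasting difference of the resistant cells cannot be told apart. Each line was sequenced as 1 library, so no ratio below has a replicate check, no test between lines was run and every interval covers counting error only. The difference between a resistant line and its parent therefore cannot be told apart from the difference between any pair of cultures.

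Semaphorins are secreted or membrane-bound ligands that were first known for steering growing axons and also act in vessels, immune cells and epithelia. Plexins are their receptors, and their intracellular part acts on small GTPases and through them on the cytoskeleton and on adhesion. The secreted class 3 semaphorins mostly bind a neuropilin that sits beside a plexin, class 4 members bind B-type plexins in many tissues, and class 6 members bind A-type plexins. SLIT proteins are the secreted ligands of the ROBO receptors.

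Depth was 19950537 to 26394267 counts per library, and 3 counts, used as the limit of detection, equal 0.112 to 0.147 normalized CPM, a count as a share of the TMM-scaled library size. The prostate luminal markers were present in all 4 libraries, and the basal marker KRT14 was at 0.557 normalized CPM or less, with the other 3 basal markers looked for not analysed here. The LNCaP library stood apart in KLK3, the androgen-regulated gene of prostate-specific antigen, at 53.1 normalized CPM against 2685, 2412 and 1870 in LN-OlapR, C4-2B and 2B-OlapR. Every comparison that uses LNCaP rests on that library, and the part of this difference in the results was not tested. Markers of other cell types were low: 3 of 8 endothelial markers summed to 4.20 to 13.6 normalized CPM, 3 of 6 fibroblast markers to 8.83 to 19.0, 3 of 6 leukocyte markers to 0.670 to 5.45, and 2 of 8 neuroendocrine markers to 2.49 to 3.64.

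SEMA6D and SEMA3C were the members at least 2-fold higher in both resistant lines, as 0.836% of all genes were, and the stretch before each of their known start sites is shown because these genes carry the pattern. SEMA6D spans 47184101 to 47774223 of chromosome 15 on the plus strand, and SEMA3C spans 80742538 to 80922359 of chromosome 7 on the minus strand (GRCh38, GENCODE release 29). The counts are per gene and do not tell which start site was used. The 250 bases before each start are from RefSeq on GRCh38.p14, with CpG dinucleotides, the sites of DNA methylation, in capitals:
SEMA6D start site 1, chr15:47183839-47184088, plus strand: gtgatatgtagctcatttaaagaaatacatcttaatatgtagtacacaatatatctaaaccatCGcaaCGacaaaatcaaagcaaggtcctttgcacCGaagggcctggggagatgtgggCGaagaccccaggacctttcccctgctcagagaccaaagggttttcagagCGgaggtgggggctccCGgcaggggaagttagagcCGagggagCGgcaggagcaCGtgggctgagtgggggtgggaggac
SEMA6D start site 2, chr15:47717255-47717504, plus strand: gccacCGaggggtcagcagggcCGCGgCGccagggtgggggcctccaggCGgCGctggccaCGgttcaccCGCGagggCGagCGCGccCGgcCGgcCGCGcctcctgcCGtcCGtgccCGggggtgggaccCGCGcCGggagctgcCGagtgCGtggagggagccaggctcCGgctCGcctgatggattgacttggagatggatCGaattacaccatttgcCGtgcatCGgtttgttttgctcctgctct
SEMA6D start site 3, chr15:47718239-47718488, plus strand: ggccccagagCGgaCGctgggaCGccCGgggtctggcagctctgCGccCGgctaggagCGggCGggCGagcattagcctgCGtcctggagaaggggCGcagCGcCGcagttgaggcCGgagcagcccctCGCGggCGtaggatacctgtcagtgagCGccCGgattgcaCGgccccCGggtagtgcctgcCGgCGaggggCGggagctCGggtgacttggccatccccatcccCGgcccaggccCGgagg
SEMA3C start site 1, chr7:80922390-80922639, minus strand: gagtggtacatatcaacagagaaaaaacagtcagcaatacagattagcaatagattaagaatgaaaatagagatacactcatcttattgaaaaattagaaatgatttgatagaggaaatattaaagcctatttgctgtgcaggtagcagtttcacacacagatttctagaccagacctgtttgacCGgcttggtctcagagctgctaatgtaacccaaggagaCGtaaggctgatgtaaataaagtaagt
SEMA3C start site 2, chr7:80919052-80919301, minus strand: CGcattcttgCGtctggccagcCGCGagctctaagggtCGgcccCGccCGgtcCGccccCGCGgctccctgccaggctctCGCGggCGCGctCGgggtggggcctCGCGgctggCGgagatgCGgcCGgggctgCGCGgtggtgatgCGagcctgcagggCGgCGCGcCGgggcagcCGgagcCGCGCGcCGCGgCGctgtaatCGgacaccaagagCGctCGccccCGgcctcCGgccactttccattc

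The start sites of each gene differed in CpG content. For SEMA6D, start site 1 had 9 CpG, start site 2 had 29 and start site 3 had 27. For SEMA3C, start site 1 had 2 CpG and start site 2 had 39. Of the 35116 windows of the same length in the RefSeq table, 14.1% held at least 29 CpG, 17.7% at least 27, 54.1% at least 9 and 2.7% at least 39. Among the members 28 had a window, 51 windows in all, with a median of 15 CpG against 11 over all windows. NRP1, SEMA3A, SEMA6A and SEMA6B had no window. The letters AGAACA, the core of each arm of the palindromic element bound by the androgen receptor, were searched on both strands. They occurred in 0 of the 51 member windows and in 12.4% of all windows. The member windows were richer in CpG and some came from the same gene, so nothing is read from this difference. Methylation and factor binding were not measured here.

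SEMA6D is a membrane-bound class 6 semaphorin that binds plexin A1. Its counts were 0 for LNCaP against 57 for LN-OlapR, and 8 for C4-2B against 1574 for 2B-OlapR. As normalized CPM these are 0, 2.44, 0.391 and 76.0. Both parental lines were thus at or near the limit of detection, and 2B-OlapR stood far above the other 3 lines. With LNCaP taken at the limit of 3 counts, LN-OlapR was 21.9-fold higher. The 95% interval of this pair, with 0.5 counts added to each library, ran from 8.19-fold to 2145-fold. 2B-OlapR was 194-fold above C4-2B (log2 ratio 7.52, 95% interval 6.54 to 8.49, with 0.5 counts added to each library as in all log2 ratios). Genes were kept for a pair if the mean of its 2 libraries reached 1 normalized CPM, and among these SEMA6D ranked 4 of 15527 in the 2B pair. In the LN pair the log2 ratio is set by the counts added to 0, at 7.05 with 0.5 counts and 5.09 with 2 counts. In bulk RNA, more transcript per cell and more cells with the transcript cannot be told apart.

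**Figure D1:**
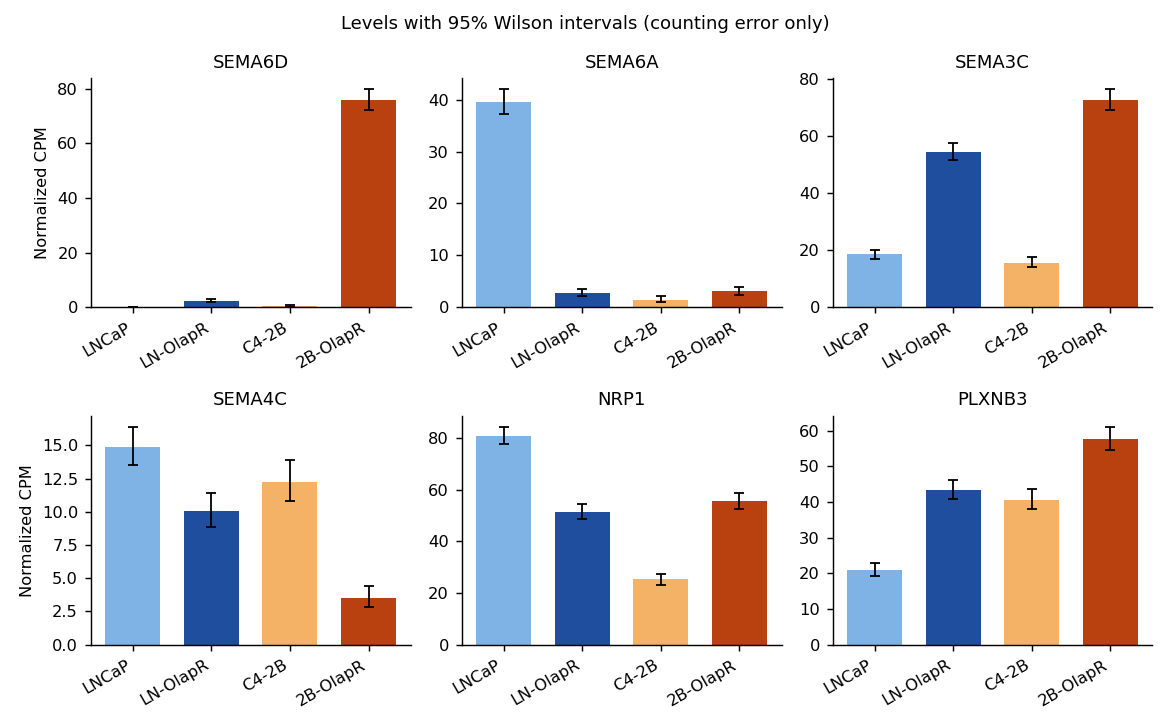
Normalized CPM of 6 members in LNCaP, LN-OlapR, C4-2B and 2B-OlapR, 1 library each (bars, y axis from 0 and scaled per gene), with 95% Wilson intervals for counting error. SEMA6D was high only in 2B-OlapR (76.0), SEMA6A only in LNCaP (39.5), and SEMA3C was higher in both resistant lines than in either parental line.

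Genes around SEMA6D did not share its change. The table held 7 other genes within 1 Mb of it, 5 of them past the filter, and their log2 ratios ran from -0.42 to 0.09 in the LN pair and from 0.03 to 0.62 in the 2B pair. RPL7AP62, a ribosomal protein pseudogene inside the SEMA6D span, had 35.1, 37.5, 36.3 and 39.3 normalized CPM in LNCaP, LN-OlapR, C4-2B and 2B-OlapR. MYEF2, at 27.3, 26.2, 20.2 and 31.1 normalized CPM, had the highest of the 2B pair ratios. The 1 Mb distance was chosen after the values were seen.

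The other class 6 semaphorins behaved differently from SEMA6D. SEMA6A, which binds plexins A2 and A4, had 1063 counts in LNCaP and 64 in LN-OlapR, against 30 in C4-2B and 64 in 2B-OlapR, or 39.5, 2.74, 1.47 and 3.09 normalized CPM. LNCaP alone was high, and the other 3 lines lay close together. LN-OlapR was 14.4-fold below LNCaP (log2 ratio -3.84, -4.20 to -3.48), whereas 2B-OlapR was 2.11-fold above C4-2B (1.06, 0.44 to 1.68). C4-2B was 27.0-fold below LNCaP (-4.73, -5.25 to -4.21). SEMA6C was low in all 4 lines, at 3.61, 2.53, 3.03 and 2.03 normalized CPM, and SEMA6B had 2, 5, 3 and 5 counts.

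The main class 6 transcript differed between lines. Per kilobase of the longest transcript, the class summed to 6.45 and 1.33 normalized CPM in LNCaP and LN-OlapR, and to 0.890 and 13.3 in C4-2B and 2B-OlapR. SEMA6A made up 89.1% of that sum in LNCaP, and SEMA6D made up 93.3% in 2B-OlapR. In LN-OlapR and C4-2B no class 6 gene was abundant. PLXNA2 and PLXNA4, receptors of SEMA6A, were at most 1.06 and 0.241 normalized CPM, PLXNA4 with 5, 1, 0 and 5 counts, whereas PLXNA1 was at 72.4 to 100.2 normalized CPM.

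The genes near SEMA6A on the minus strand of chromosome 5 (116443616 to 116574934) were mostly close to even in the LN pair. Of 14 others within 1 Mb, 9 passed the filter in the LN pair, and 1 was at least 2-fold lower. That gene was LINC00992, a long noncoding RNA at 3.61, 1.72, 0.831 and 6.47 normalized CPM in LNCaP, LN-OlapR, C4-2B and 2B-OlapR. It had the same direction as SEMA6A in the LN pair (log2 ratio -1.06, -1.59 to -0.53). The same held in the 2B pair, where its ratio was 2.92 (2.21 to 3.64) and that of SEMA6A was 1.06. COMMD10, the nearest coding gene, was at 12.4, 7.97, 10.2 and 13.2 normalized CPM. SEMA6A-AS1 and SEMA6A-AS2, antisense genes that share 2.4% and 0.5% of the SEMA6A exon bases, had at most 13 counts in any library. In the 2B pair 10 of the neighbours passed the filter, with a median log2 ratio of 0.42, and TMED7-TICAM2 (1.25) and LINC00992 were at least 2-fold higher.

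SEMA3C, a secreted class 3 semaphorin that binds NRP1 and plexin D1 among others, had 498 counts in LNCaP against 1271 in LN-OlapR, and 321 in C4-2B against 1505 in 2B-OlapR. Its levels were 18.5, 54.5, 15.7 and 72.6 normalized CPM, so both resistant lines were above both parental lines. LN-OlapR was 2.94-fold above LNCaP (log2 ratio 1.56, 1.41 to 1.71), and 2B-OlapR was 4.63-fold above C4-2B (2.21, 2.04 to 2.38). The parental lines differed little, with C4-2B 1.18-fold below LNCaP. Per kilobase of the longest transcript SEMA3C was the leading member of its class in LN-OlapR, with 46.8% of the class. SEMA3F led in both parental lines and, with 44.3%, narrowly in 2B-OlapR. There SEMA3F and SEMA3C were close, at 14.85 and 14.04 normalized CPM per kilobase.

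SEMA3C shares chromosome 7, and the minus strand, with 3 other class 3 genes, SEMA3E, SEMA3A and SEMA3D, in a stretch from 80742538 to 85186855. SEMA3D had 0, 4, 1 and 70 counts in LNCaP, LN-OlapR, C4-2B and 2B-OlapR, a 69.1-fold ratio in the 2B pair with no counts added. With 0.5 counts added to each library the log2 ratio was 5.54. With so few parental counts its interval, as fold, ran from 9.21 to 234. SEMA3A had 0, 7, 0 and 15 counts, so that 2B-OlapR was 4.94-fold higher than C4-2B taken at the limit. The counting interval of SEMA3A in the 2B pair, as fold and with 0.5 counts added to each library, ran from 1.832 to 511.6. SEMA3E had 2, 3, 0 and 13 counts, and 2B-OlapR was 4.28-fold higher in the same way, with a counting interval from 1.585 to 448.5. All 4 genes had their highest level in 2B-OlapR, although SEMA3A and SEMA3E stayed below 1 normalized CPM there.

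The genes between and beside these 4 did not all follow them. PCLO, a presynaptic scaffold gene between SEMA3C and SEMA3E, was at 7.18, 23.2, 6.25 and 9.80 normalized CPM in LNCaP, LN-OlapR, C4-2B and 2B-OlapR, higher in both resistant lines but with its largest ratio in the LN pair (1.69, 1.45 to 1.93). HNRNPA1P8, a pseudogene beside SEMA3D, stayed between 0.869 and 1.29. GNAI1, a G protein gene on the SEMA3C side, was lower in both pairs, at 40.3 and 9.43 normalized CPM in LNCaP and LN-OlapR and at 66.8 and 32.7 in C4-2B and 2B-OlapR. These neighbours were also chosen after their values were seen.

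**Figure D2:**
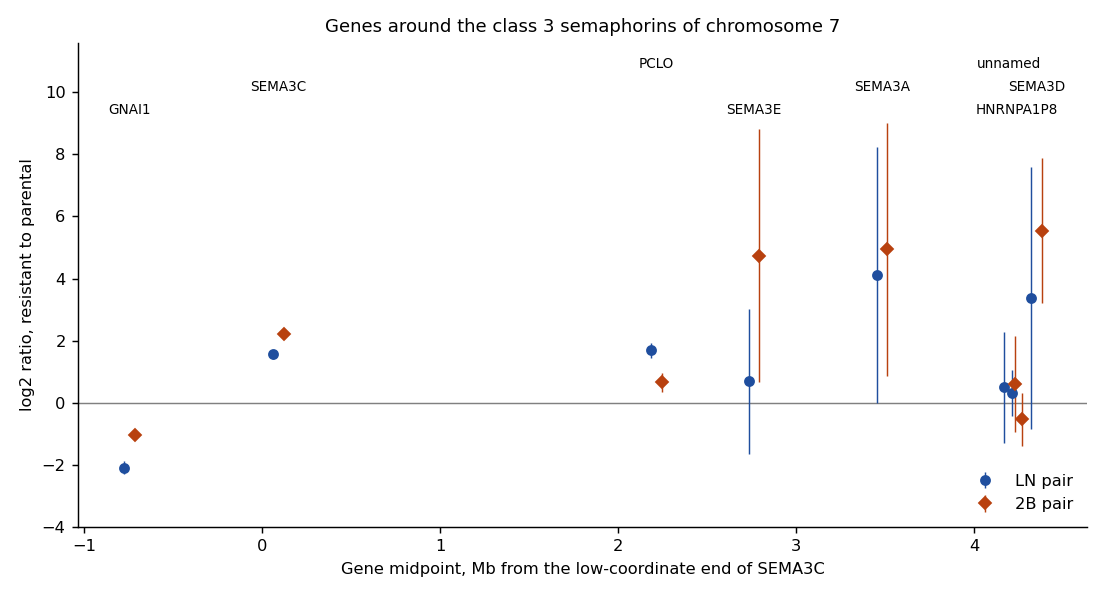
Log2 ratio of LN-OlapR to LNCaP (circles) and of 2B-OlapR to C4-2B (diamonds) for each gene of the table from 1 Mb before SEMA3C to 1 Mb after SEMA3D, against the distance of the gene's midpoint from SEMA3C in Mb, with 95% counting intervals and 0.5 counts added to each library. The semaphorins lie above 0 in the 2B pair, with wide intervals for SEMA3E, SEMA3A and SEMA3D because their parental counts were 0 or 1, while GNAI1 lies below 0 in both pairs.

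The other class 3 semaphorins lie on chromosome 3. SEMA3F, which binds NRP2 with high affinity, was at 37.5, 24.8, 45.9 and 56.5 normalized CPM in LNCaP, LN-OlapR, C4-2B and 2B-OlapR. LN-OlapR was below LNCaP (log2 ratio -0.60, -0.75 to -0.45), and 2B-OlapR was above C4-2B (0.30, 0.17 to 0.42). SEMA3B, first described as a candidate tumour suppressor in lung, was at 15.6, 10.3, 12.8 and 5.65 normalized CPM and so was lower in both resistant lines, by 1.51-fold in the LN pair and 2.27-fold in the 2B pair. SEMA3B and SEMA3F lie close together on the plus strand, SEMA3F from 50155045 to 50189075 and SEMA3B from 50267558 to 50277546, and their 2B pair ratios had opposite signs. SEMA3G was at 10.3, 10.9, 13.9 and 10.7 normalized CPM.

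The class 4 semaphorins are membrane-bound. Their median log2 ratio was -0.31 in the LN pair, -0.19 in the 2B pair and -0.21 between the parental lines. In the 2B pair all 5 members past the filter had a ratio below 0, as 7766 of all 15527 genes did. For 3 of them, SEMA4A, SEMA4C and SEMA4F, the counting interval lay below 0, as it did for 4785 of those genes. In the LN pair 4 of 6 were below 0, as 7748 of 15373 genes were. Between the parental lines 5 of 6 were, as 8009 of 15580 genes were. SEMA4C, a ligand of plexin B2, was at 14.9, 10.03, 12.3 and 3.52 normalized CPM in LNCaP, LN-OlapR, C4-2B and 2B-OlapR. The 2B-OlapR level stood below the other 3, 3.48-fold under C4-2B (log2 ratio -1.79, -2.17 to -1.42), and LN-OlapR was 1.48-fold under LNCaP (-0.57, -0.80 to -0.33). SEMA4G had 158, 77, 31 and 7 counts, or 5.88, 3.30, 1.515 and 0.338 normalized CPM, and its mean over C4-2B and 2B-OlapR did not reach 1, while its LN pair ratio was -0.83 (-1.22 to -0.44). MRPL43 on the other strand shares 22.3% of the SEMA4G exon bases and had 803 to 970 counts, and the sources do not state whether counting used the strand.

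SEMA4A, a ligand known from immune cells, was among the most abundant semaphorins, at 51.4, 65.6, 51.4 and 45.2 normalized CPM in LNCaP, LN-OlapR, C4-2B and 2B-OlapR. Its ratio was above 0 in the LN pair (0.35, 0.25 to 0.46) and below 0 in the 2B pair (-0.19, -0.31 to -0.06). SEMA4B was nearly even, at 29.9, 32.97, 30.5 and 27.6 normalized CPM. SEMA4D, the classical ligand of plexin B1, was at 37.6 in LNCaP and at 28.1, 28.05 and 26.8 in the other 3 lines. SEMA4F was at 9.49 and 8.23 in LNCaP and LN-OlapR and at 8.60 and 5.31 in C4-2B and 2B-OlapR, a 2B pair ratio of -0.69 (-1.04 to -0.35). SEMA7A, the single class 7 member, which carries a lipid anchor, was at 2.12, 1.97, 3.23 and 2.27 normalized CPM with both pair intervals including 0.

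**Figure D3:**
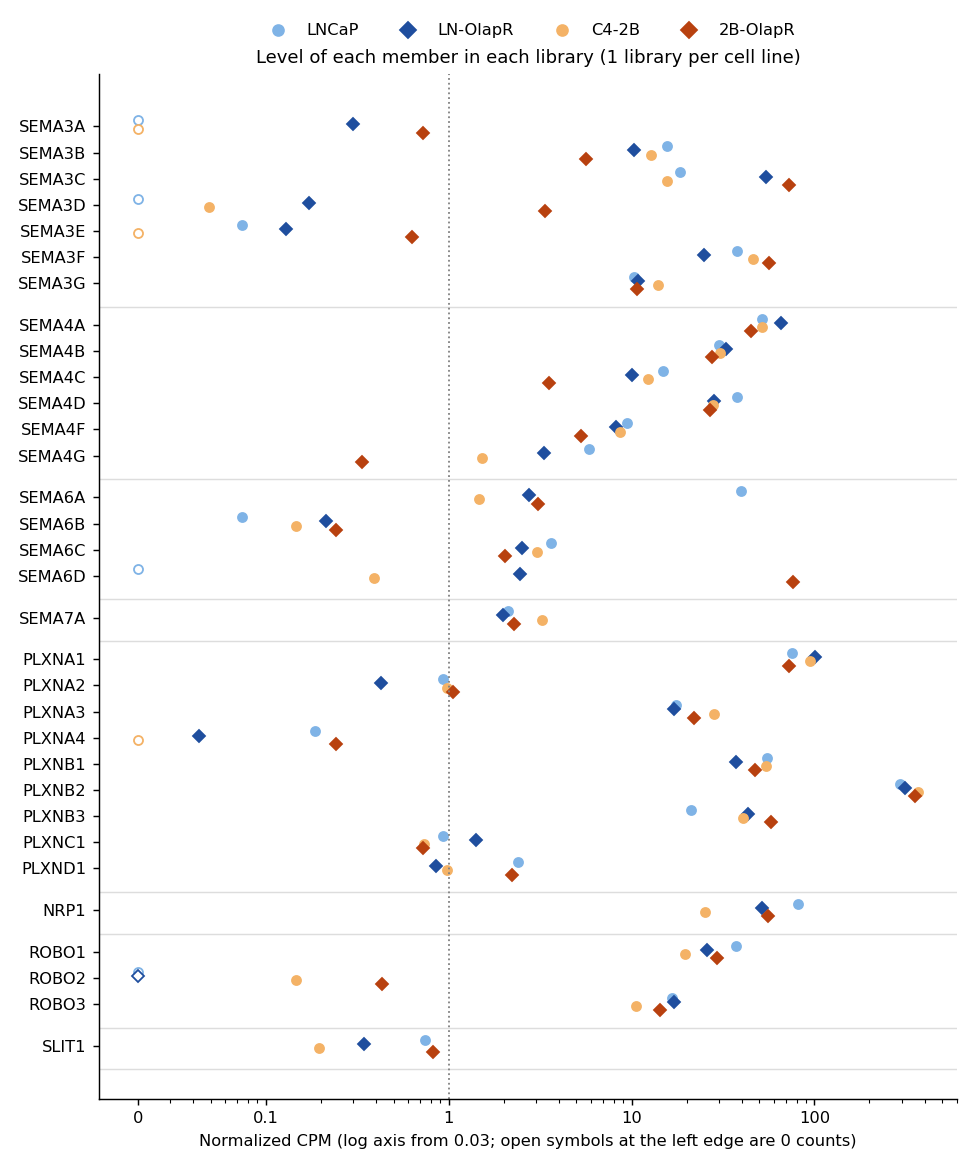
Normalized CPM (log axis) of all 32 members in the 4 libraries, grouped by family, with open symbols at the left edge for 0 counts and a dotted line at 1 normalized CPM. SEMA6D runs from 0 to 76.0 and SEMA6A from 1.47 to 39.5, while PLXNB2 and PLXNA1 stay high in every line.

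Plexins were the most abundant family, summing to 67.3, 74.01, 85.2 and 81.5 normalized CPM per kilobase in LNCaP, LN-OlapR, C4-2B and 2B-OlapR. PLXNB2, a receptor for class 4 semaphorins and for angiogenin, was the most abundant member per kilobase and made up 66.5% to 68.4% of the plexin sum in each line. Its level was 294, 314, 370.5 and 354 normalized CPM, so its large counts gave ratios of 0.10 (0.05 to 0.14) and -0.07 (-0.11 to -0.02) whose intervals excluded 0 although the differences were 1.07-fold and 1.05-fold. PLXNA1 was at 75.4, 100.2, 94.4 and 72.4 normalized CPM, higher in LN-OlapR than LNCaP by 1.33-fold and lower in 2B-OlapR than C4-2B by 1.30-fold.

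PLXNB3, a plexin known from the nervous system that binds SEMA5A, was higher beyond counting error in both resistant lines. It had 566, 1010, 832 and 1197 counts, or 21.1, 43.3, 40.7 and 57.8 normalized CPM, in LNCaP, LN-OlapR, C4-2B and 2B-OlapR. LNCaP was the lowest line and 2B-OlapR the highest. The ratio was 2.06-fold in the LN pair (log2 1.04, 0.89 to 1.19, and 0.96, below 2-fold, with scaling by total counts) and 1.42-fold in the 2B pair (0.51, 0.38 to 0.63). The gene SRPK3 shares 20.4% of the PLXNB3 exon bases on the same strand and had 13, 50, 42 and 36 counts in the same order of lines. PLXNB1 was at 54.9, 37.0, 54.2 and 47.4 normalized CPM and was lower in both resistant lines, by 1.48-fold and 1.14-fold.

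The remaining plexins were less abundant. PLXND1, the receptor that binds SEMA3E without a neuropilin, was at 2.38, 0.857, 0.977 and 2.22 normalized CPM in LNCaP, LN-OlapR, C4-2B and 2B-OlapR. LNCaP and 2B-OlapR were the high lines, so that LN-OlapR was 2.78-fold below its parent and 2B-OlapR 2.27-fold above its own. PLXNA3 was at 17.5, 17.02, 28.3 and 22.01 normalized CPM. PLXNC1, the receptor of SEMA7A, was at 0.93, 1.42, 0.733 and 0.724, and PLXNA2 at 0.93, 0.429, 0.977 and 1.06, both near the filter.

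NRP1, a coreceptor for class 3 semaphorins and for VEGFA, was the most variable of the abundant receptors. Its counts were 2178 and 1199 in LNCaP and LN-OlapR and 517 and 1151 in C4-2B and 2B-OlapR, or 81.02, 51.4, 25.3 and 55.55 normalized CPM. LNCaP was highest and C4-2B lowest, with the resistant lines between them and close to each other. LN-OlapR was 1.58-fold below LNCaP (log2 ratio -0.66, -0.76 to -0.55), and 2B-OlapR was 2.20-fold above C4-2B (1.14, 0.99 to 1.29). VEGFA, another ligand of NRP1, was at 62.98, 99.3, 174 and 83.9 normalized CPM, lowest in LNCaP and highest in C4-2B.

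ROBO1, a SLIT receptor, had the same order of lines as NRP1, at 37.4, 25.9, 19.65 and 29.2 normalized CPM in LNCaP, LN-OlapR, C4-2B and 2B-OlapR. LN-OlapR was 1.44-fold below LNCaP, and 2B-OlapR was 1.49-fold above C4-2B. ROBO3 was at 16.55, 16.98, 10.6 and 14.2 normalized CPM, and its interval included 0 in the LN pair (0.04, -0.16 to 0.23) and excluded 0 in the 2B pair (0.42, 0.17 to 0.68) and between the parental lines (-0.64, -0.87 to -0.41). ROBO2 had 0, 0, 3 and 9 counts. SLIT1, a ligand, had 20, 8, 4 and 17 counts, at most 0.820 normalized CPM. The members below 1 normalized CPM in every line were PLXNA4, ROBO2, SEMA3A, SEMA3E, SEMA6B and SLIT1.

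Across the LN pair, 24 of the 32 members passed the filter. SEMA6D, SEMA3C and PLXNB3 were at least 2-fold higher in LN-OlapR, 3 of 24, where 4.64% of all 15373 genes were. With scaling by total counts 2 members were, without PLXNB3. SEMA6A and PLXND1 were at least 2-fold lower, 2 of 24, where 4.83% of all genes were. Across the 2B pair, 24 members passed, and SEMA6D, SEMA3D, SEMA3C, PLXND1, NRP1 and SEMA6A were at least 2-fold higher, 6 of 24, where 4.42% of 15527 genes were. SEMA4C and SEMA3B were at least 2-fold lower, 2 of 24, where 5.65% of genes were. Both pairs entered the choice of the group, and nothing is read from these counts.

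**Figure D4:**
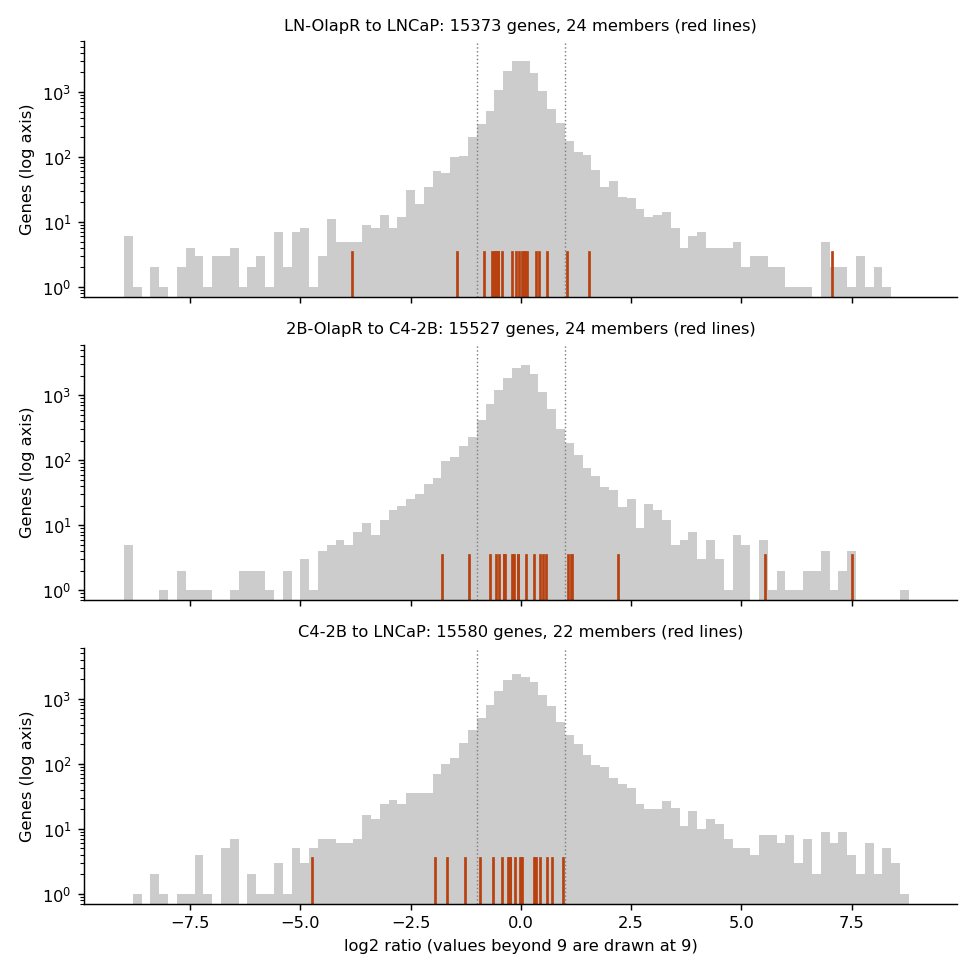
Distribution of log2 ratios over all genes past the filter (grey, log y axis) for LN-OlapR to LNCaP, 2B-OlapR to C4-2B and C4-2B to LNCaP, with members as red lines and 2-fold limits dotted. Most members lie within the 2-fold limits, with SEMA6D at 7.05 (set by the 0.5 counts added to 0) and 7.52 in the first 2 panels and SEMA6A at -3.84 and -4.73 in the first and last.

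The members that passed lay on both sides of 0, and several passed only through the resistant library: SEMA6D in both pairs, PLXNC1 in the LN pair, and SEMA3D, PLXND1 and PLXNA2 in the 2B pair. PLXND1 passed in the LN pair only through LNCaP. The median log2 ratio was -0.15 (binomial 95% interval -0.57 to 0.14) in the LN pair and -0.07 (-0.38 to 0.57) in the 2B pair, beside -0.00 over all genes in each. In the LN pair 10 members were above 0 and 14 below, and in the 2B pair 11 were above and 13 below.

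Of the 22 members that passed the filter in both pairs, 3 had both intervals above 0 (SEMA6D, SEMA3C and PLXNB3) and 4 had both below 0 (SEMA3B, SEMA4C, SEMA6C and PLXNB1). A further 8 had intervals on opposite sides of 0, and 7 had at least 1 interval that included 0. Over all 14602 genes in both pairs these shares were 14.1%, 13.2%, 16.3% and 56.4%. The members at least 2-fold higher in both pairs, SEMA6D and SEMA3C, were 2 of 22, where 0.836% of all genes were, and 0 were at least 2-fold lower in both, where 1.09% were. SEMA6D was named in the choice of the group and passed the filter only through the resistant libraries, so nothing is read from these counts.

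**Figure D5:**
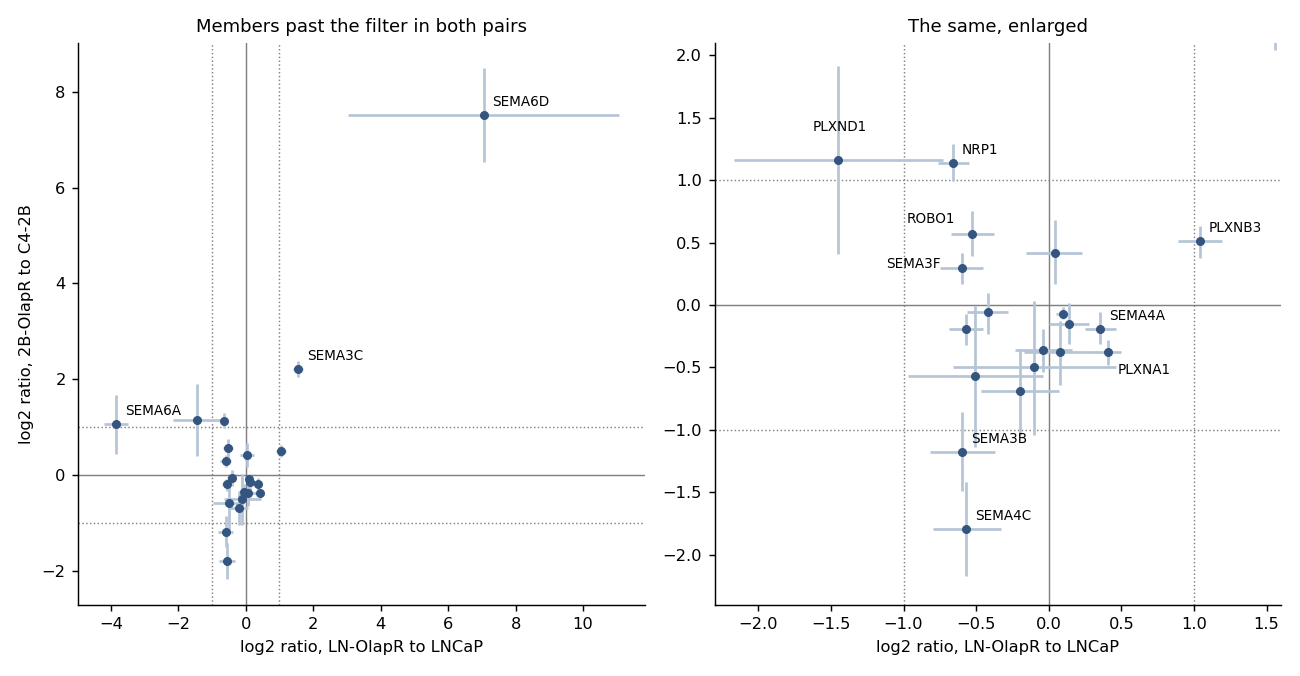
Log2 ratio of 2B-OlapR to C4-2B (y axis) against that of LN-OlapR to LNCaP (x axis) for the 22 members past the filter in both pairs, with 95% counting intervals and dotted lines at 2-fold, and the centre enlarged at right. SEMA6D and SEMA3C lie above 2-fold on both axes, and SEMA6A, PLXND1, NRP1, ROBO1 and SEMA3F lie left of 0 and above 0.

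The comparison of the parental lines was not used in choosing the group, but it shares the LNCaP library with the LN pair and the C4-2B library with the 2B pair. Of 22 members past the filter, 0 were at least 2-fold higher in C4-2B than in LNCaP, where 8.00% of 15580 genes were. SEMA6A, SEMA4G, NRP1 and PLXND1 were at least 2-fold lower, 4 of 22, where 7.18% of genes were. SEMA4G was 3.88-fold lower (log2 ratio -1.94, -2.49 to -1.39), NRP1 3.21-fold lower (-1.68, -1.82 to -1.54) and PLXND1 2.44-fold lower (-1.26, -1.98 to -0.54). The median over the members was -0.19 (-0.64 to 0.32), beside -0.02 over all genes. PLXNB3 came closest to 2-fold higher, at 1.93-fold (0.95, 0.80 to 1.10).

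Genes that act with the members were counted from lists of partners. Of the semaphorin coreceptors and signalling genes past the filter, 2 of 22 were at least 2-fold higher and 1 lower in the LN pair, and 4 of 27 were higher and 1 lower in the 2B pair. DPYSL2, a collapsin response mediator that carries semaphorin signals to microtubules, was at 26.7, 29.8, 4.40 and 36.97 normalized CPM in LNCaP, LN-OlapR, C4-2B and 2B-OlapR, so that C4-2B alone was low. TIAM1, a Rac activator, was at 0.186, 1.24, 0.244 and 1.79. DPYSL4 was at 4.20, 18.9, 15.1 and 27.7, and DPYSL5 at 26.2, 11.7, 1.03 and 4.49. The shares of all genes given above are the background for these lists too, and the list medians were 0.07 and 0.05 in the LN and 2B pairs, beside -0.00 over all genes in each.

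Among the netrins, RGMs and their receptors, 3 of 7 were at least 2-fold higher in the LN pair, where 4.64% of all genes were. In the 2B pair 1 of 8 was, where 4.42% of all genes were, and 0 were lower in either pair. UNC5A, a netrin receptor, was at 0.707, 6.82, 8.55 and 5.65 normalized CPM in LNCaP, LN-OlapR, C4-2B and 2B-OlapR, low in LNCaP alone. UNC5B, another netrin receptor, was at 2.31, 3.17, 2.74 and 11.0, high in 2B-OlapR alone. NTNG1, a netrin with a lipid anchor, was at 1.79, 6.35, 3.52 and 2.12, and UNC5C at 0.670, 1.67, 1.81 and 1.79. The list medians were 0.46 and -0.04.

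The Eph receptors guide cells by contact with ephrins on neighbouring cells. In the LN pair 4 of 10 were at least 2-fold lower and 1 higher, where 4.83% and 4.64% of all genes were. In the 2B pair 3 of 10 were lower and 1 higher, where 5.65% and 4.42% were. The lower genes were not all the same in both pairs. EPHA3 was at 102, 14.96, 97.5 and 21.04 normalized CPM and was low in both resistant lines, with log2 ratios of -2.77 (-2.93 to -2.61) and -2.21 (-2.36 to -2.06). EPHA7 was at 17.4, 4.76, 7.97 and 3.19, also lower in both. EPHA6 was at 60.3, 10.6, 11.0 and 9.41, high in LNCaP alone. EPHB6 was at 0.484, 2.57, 3.42 and 5.12. The list medians were -0.07 and -0.39.

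Ephrins had 1 of 8 lower in the LN pair and 1 of 7 in the 2B pair, with 0 higher, where 4.83% and 5.65% of all genes were lower. EFNA5 was at 315, 174.5, 252 and 119.9 normalized CPM, and EFNB3 at 6.14, 1.03, 1.71 and 0.145, with list medians of -0.11 and -0.15. The VEGF ligands of neuropilins had 2 of 3 members lower by 2-fold or more in the 2B pair, VEGFA and PGF, where 5.65% of all genes were. PGF had 29 and 14 counts in C4-2B and 2B-OlapR, or 1.42 and 0.676 normalized CPM, and passed the filter only through C4-2B. In the LN pair 0 of 2 were at least 2-fold changed. The list medians were 0.10 and -1.04. The Slit and ROBO signalling list had 0 of 14 and 0 of 13 at least 2-fold changed, with medians of -0.16 and -0.24. In that list PAK1, named after its values were seen, had 220, 164, 0 and 10 counts, so C4-2B and 2B-OlapR were both low, and it did not pass the filter in the 2B pair.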

How the data were processed

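RNA from the 4 cell lines was made into stranded mRNA libraries by the authors. The deposited table holds estimated counts per gene, not scaled between libraries and not whole numbers for 38.0% of values (tolerance 0.01), and every gene sums to at least 10 over the 4 libraries. The submitters' processing notes name STAR, Partek, GRCh38 and hg38, with no versions, and the use of strand in counting is not given in the sources used here.

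Counts were rounded to whole numbers and scaled with TMM factors (edgeR 4.0.16, R 4.3.3), and further steps used Python 3.11.15 with numpy 2.4.6, pandas 2.3.3 and SciPy 1.17.1. Log2 ratios used a pseudocount of 0.5 counts, with normal 95% intervals from the counts, and fold values are ratios of normalized CPM. Levels have Wilson intervals, and medians of more than 5 members have binomial intervals. A gene was called changed at 2-fold or more if its mean over the pair was at least 1 normalized CPM. Against 0 counts a fold is taken over 3 counts and leaves out the counting error of the other library. With 1 library per line no model was fitted and no p-value was computed. A fit with both pairs as replicates was not made, as the backgrounds are different lines and the members were selected on that contrast. The calculation was tested on simulated counts.

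The members and lists were chosen with earlier results of these data known. Every member is accounted for: those reaching 1 normalized CPM with every library, the others by counts or range. From each list, at most 4 genes with the largest changes beyond counting error were named. GENCODE release 29 gave positions and the lengths of the longest transcripts, and all 32 members matched by identifier. Scaling by total counts, DESeq2 1.42.0 size factors and upper quartile factors, a pseudocount of 2 and minimum means of 0.1 and 10 were tried.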

Additional observations from a re-analysis of the deposited data

Results flagged for a closer look

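For 8 of the 22 members that passed the filter in both pairs, the LN pair and the 2B pair moved in opposite directions, each beyond counting error. Of all 14602 genes past the filter in both pairs, 16.3% did. An interval excludes 0 more readily at high counts, so nothing is read from these shares. The differences between pairs have no replicates behind them and were not tested against the spread between cultures. The LN pair minus the 2B pair, on the log2 scale, was -4.90 for SEMA6A, -2.61 for PLXND1, -1.79 for NRP1, -1.10 for ROBO1 and -0.90 for SEMA3F, which were lower in LN-OlapR and higher in 2B-OlapR than in their parents. It was 0.79 for PLXNA1, 0.54 for SEMA4A and 0.16 for PLXNB2, which were higher in LN-OlapR and lower in 2B-OlapR. For SEMA6A, NRP1, PLXND1 and ROBO1 the parental lines themselves differed, with C4-2B lower than LNCaP. For SEMA3F (0.29, 0.16 to 0.42), PLXNA1 (0.32, 0.23 to 0.41) and PLXNB2 (0.34, 0.29 to 0.38) C4-2B was higher, and for SEMA4A the interval included 0. The LNCaP library was also the one with low KLK3, and the part of either in these differences was not tested. The PLXNB2 difference is small, and with scaling by total counts its LN pair ratio moved to 0.01.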

How the results depend on the processing

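The counts of members past 2-fold depended on the expression filter. With a minimum mean of 0.1 normalized CPM, the LN pair had 5 members higher and 5 lower, 11 were higher in the 2B pair and 1 was higher in C4-2B than in LNCaP. With a minimum mean of 10, 1 was lower in the LN pair, 3 were higher and 0 lower in the 2B pair, and 2 were lower in C4-2B than in LNCaP. The lower filter lets in members below 1 normalized CPM in every line, which had at most 20 counts. The shares of all genes past 2-fold were not computed at these filters, and nothing is read from these counts. The medians over the members and the SEMA6D ratios stayed within their intervals under every alternative that applied to them, although the 2B pair median changed sign, to 0.21, with a minimum mean of 0.1. With scaling by total counts PLXNB3 was no longer at 2-fold in the LN pair, leaving 2 members higher. Per kilobase of total exon length in place of the longest transcript, the order of single semaphorins within a library changed. Apart from the SEMA6D pair ratios, the member counts and the medians, there were 273 alternative values. Of these, 1 was the overlap of the highest 10 members per kilobase and the rest were ratios of single members. Within their counting intervals, or the 1.5-fold limit for the overlap, 272 stayed. Of those at or beyond 2-fold, 0 changed sign. ROBO3 and SEMA3G in the LN pair with scaling by total counts, and SEMA4A and PLXNB1 between the parental lines with other scalings, all with intervals including 0, did. The value outside its interval was PLXNB2 in the LN pair at 0.01 with scaling by total counts. No replicate could be left out, as each line is 1 library. Depth limits SEMA6D, SEMA3A, SEMA3D, SEMA3E, SEMA6B, PLXNA4 and ROBO2, each at 0 to 3 counts in at least 1 library.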
